A study of Homo sapiens with 4 samples.

Results

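The genes described here were the G1 cyclins, cyclin-dependent kinases (CDKs) and CDK inhibitors that act up to the retinoblastoma protein RB1. They were taken by symbol, with no threshold on their values, and comprise CCND2, CCND3, CCNE1, CCNE2, CDK2, CDK4, CDK6, CDKN1B, CDKN2D and RB1. These are 10 of the 16490 genes with values, and all 10 passed the filter on low values that left 12142 genes. Expression was measured by RNA-seq of MV4-11, a human acute myeloid leukemia (AML) line. The control hairpin sh-NC was carried by the cells of 2 libraries (control), and sh-CEBPG#3, the 1 hairpin against CEBPG used here, by those of the other 2 (knockdown). The paper states that the leukemia cells were infected with lentivirus and selected with puromycin. Its hairpins against CEBPG were in the vector pLKO.1-puro, and it does not describe the vector of sh-NC. The sources used here do not give whether a group's libraries were infected separately, so p-values measure the spread between these libraries, which may be technical.

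Progress through G1 rests on CDKs that are held back by inhibitors. D-type cyclins bind CDK4 and CDK6, which phosphorylate RB1 and its relatives and so release E2F transcription factors. E-type cyclins, themselves induced by E2F, bind CDK2 at the entry into S phase. Inhibitors of the INK4 family, such as the p19 product of CDKN2D, bind CDK4 and CDK6, and those of the CIP/KIP family, such as the p27 product of CDKN1B, hold cyclin E-CDK2 complexes. In AML cells of the monocytic lineage, differentiation is known to go with exit from the cycle.

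The deposited values are FPKM (fragments scaled by transcript length and by the reads mapped in the library), 1 for each RefSeq transcript and library, and the values of a gene's transcripts were summed. The FPKM totals of the 4 libraries lay between 364353 and 389766, and the depth in reads is unknown because FPKM carry no counts. The targeted gene CEBPG was at 30.4 and 33.6 FPKM in control libraries and at 19.2 and 17.1 FPKM in knockdown libraries, which left 56.8% of the control mean (adjusted p = 8.88e-05 in limma). All 7 markers fixed for the line (PTPRC, CD33, FLT3, SPI1, MPO, HOXA9 and MEIS1) were expressed, of which MPO, CD33 and SPI1 were higher and MEIS1 and HOXA9 lower upon knockdown. The summed B cell, erythroid and fibroblast markers with values stayed between 0 and 1.52 FPKM in each library. The summed epithelial markers were at 12.1 to 16.0 FPKM, of which KRT8 rose from 2.29 and 2.35 to 6.26 and 6.19 FPKM (log2 fold change 1.12, adjusted p = 1.55e-05 in limma) and KRT18 did not pass. The part of these shifts in the results was not tested. The 3 T cell markers had no value in the data used here, so they were not analysed. Fold changes compare sh-CEBPG#3 with sh-NC on the log2(FPKM + 1) scale, which understates the change of genes with low values, and were tested with limma across all 12142 genes with Benjamini-Hochberg adjustment.

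Upon CEBPG knockdown the largest changes among the 10 genes were those of CCNE1, CDK2 and CDKN1B. CCNE1 fell to 52.4% of the control level and CDK2 to 65.6%, while CDKN1B rose to 137% of it. The kinases that pair with D-type cyclins, CDK4 and CDK6, the most abundant D-type cyclin CCND3 and RB1 itself did not pass the test. Of the 10 genes, 3 were lower at an adjusted p under 0.05 (CCNE1, CDK2 and CDKN2D), 2 were higher (CDKN1B and CCND2) and 5 did not pass. Among all genes tested, 23.8% were lower and 18.5% were higher by the same call, 42.2% in all, so a count of 5 in 10 lies near the background and is no result about the set. The study's threshold of p under 0.05 and a change of over 2-fold either way, applied here to limma's unadjusted p and to log2 fold changes above 1 in size, was passed by 0 of the 10 genes in limma and by 3.41% of all genes (1.05% lower and 2.36% higher), and 7 of the 10 had an unadjusted p under 0.05, as did 50.6% of all genes (28.5% lower and 22.0% higher). The median log2 fold change of the 10 genes was -0.10, against -0.04 over all genes.

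**Figure D1:**
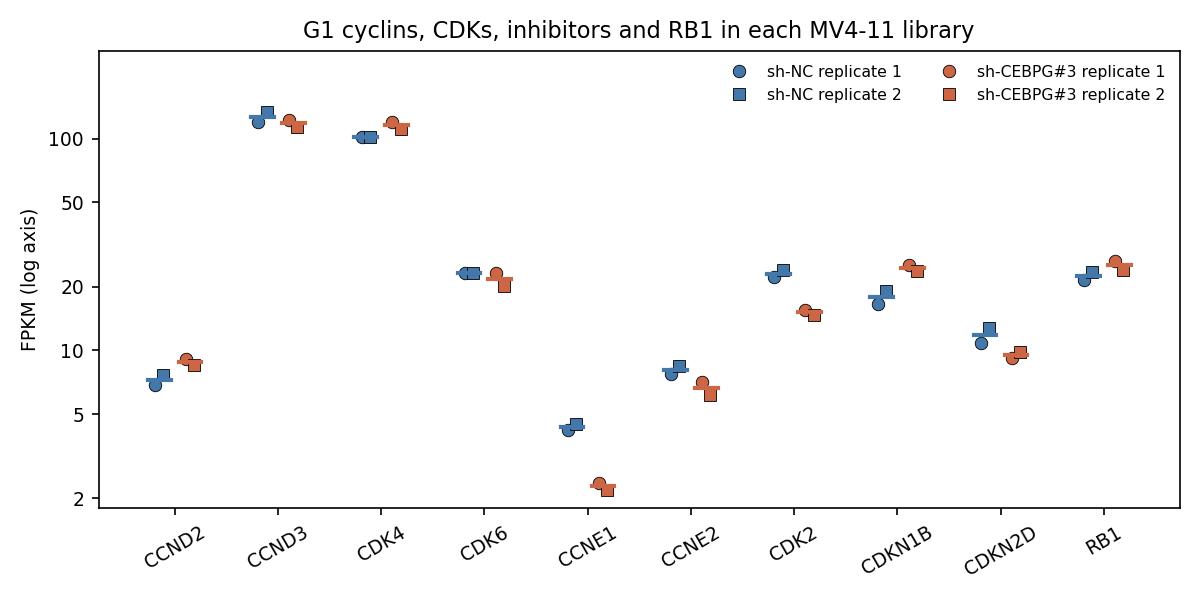
FPKM on a log axis of the 10 genes in each of the 4 libraries, with sh-NC in blue, sh-CEBPG#3 in red, circles for replicate 1, squares for replicate 2 and bars for the group means. CCNE1 and CDK2 sit lower and CDKN1B higher in both sh-CEBPG#3 libraries, and only CCND3 has groups that overlap.

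The order of the levels, which FPKM give per length of transcript, spanned from CCND3 and CDK4 at the top to CCNE1 at the bottom in both groups. In sh-NC cells the means were 126 FPKM for CCND3, 102 for CDK4, 23.1 for CDK6, 23.0 for CDK2, 22.5 for RB1, 17.9 for CDKN1B, 11.8 for CDKN2D, 8.10 for CCNE2, 7.26 for CCND2 and 4.36 for CCNE1. Of neighbours in that order, CDK6, CDK2 and RB1 overlapped between libraries and the others did not. In sh-CEBPG#3 cells CDKN1B (24.6 FPKM) stood above CDK6 (21.7 FPKM) and CDK2 (15.1 FPKM), and CCND2 (8.85 FPKM) stood above CCNE2 (6.63 FPKM). There CCND3 overlapped with CDK4 and RB1 with CDKN1B. With 2 libraries a group this order rests on the range of 2 values for each gene.

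CCNE1, the E-type cyclin that activates CDK2 at the G1/S boundary, had 4.21 and 4.51 FPKM in control libraries and 2.37 and 2.20 FPKM in knockdown libraries. Both knockdown libraries lay below both controls, and the libraries of a group were close to each other. The means were 4.36 ± 0.207 and 2.29 ± 0.120 FPKM (SD, n = 2 each), and the log2 fold change was -0.71 (95% interval -0.94 to -0.48, adjusted p = 0.000469 in limma), the lowest of the 10 genes. As bulk RNA was measured, fewer cells in the phase that expresses a gene and less RNA per cell cannot be told apart, here and for the genes that follow. CCNE1 lies on chromosome 19 from 29811991 to 29824312 (RefSeq, GRCh38.p14) and is listed by 1 transcript, NM_001238.

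For genes whose change passed the test and that have an entry in the RefSeq promoter table (CCNE1, CDKN1B and CDKN2D), the 250 bases before the gene start are printed to show what the regions at these starts hold. CDK2 and CCND2 have no entry. Capitals mark GC boxes (GGGCGG) and CCAAT boxes (CCAAT) on either strand, which did not overlap. The window of CCNE1, chr19:29811741-29811990 on the plus strand of GRCh38.p14, held 7 GC boxes and no CCAAT box.
CCNE1: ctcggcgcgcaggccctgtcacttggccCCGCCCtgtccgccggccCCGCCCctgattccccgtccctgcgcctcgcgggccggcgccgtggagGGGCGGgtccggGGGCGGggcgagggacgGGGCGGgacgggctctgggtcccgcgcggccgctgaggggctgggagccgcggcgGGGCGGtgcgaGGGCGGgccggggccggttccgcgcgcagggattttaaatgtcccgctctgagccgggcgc

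GC boxes occurred in 42.6% and CCAAT boxes in 32.0% of the 35116 windows of the same length in that table. The same windows were searched on both strands for the E-box CACGTG (6.34% of all windows), for the E2F forms TTTCCCGC, TTTGGCGC, TTTCGCGC and TTTGCCGC (2.79%), for the C/EBP palindrome TTGCGCAA (0.131%) and for the composite C/EBP-ATF form TTGCATCA (0.772%). None of the 3 printed windows held these letters. Among the windows of the 7 genes with an entry, only that of CDK4 held E-boxes, 3 in number, and none held the E2F or C/EBP forms. Not all of these windows lie at a gene start. The entry of RB1 lies 172699 bases from the gene start, so it was not read as the promoter of the listed transcript, and that promoter was not searched. The windows of CCND3 lie 1347, 108227 and 110830 bases from its gene start, and 1 window of CDK6 lies 2614 bases away.

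CCNE2, the second E-type cyclin, had 7.75 and 8.46 FPKM in sh-NC cells and 7.10 and 6.15 FPKM in sh-CEBPG#3 cells. The groups did not overlap, but the log2 fold change of -0.26 (95% interval -0.48 to -0.04) had an adjusted p = 0.0592 in limma. It passed with equal totals (adjusted p = 0.0243 in limma). The estimate was larger in size without sh-NC replicate 1 (-0.31) and without sh-CEBPG#3 replicate 1 (-0.35). It was smaller without sh-NC replicate 2 (-0.20) and without sh-CEBPG#3 replicate 2 (-0.17). Over the settings with all 4 libraries the adjusted p ran from 0.0243 to 0.243 in limma. CCNE2 (chromosome 8, 94880224 to 94896693) overlaps INTS8 and NDUFAF6 in the RefSeq annotation, and strand is not given for the counting, so reads there could belong to either gene. NDUFAF6 was lower (log2 fold change -0.31, adjusted p = 0.0202 in limma), and its part in the value of CCNE2 was not tested. CCNE2 made up 64.8% and 65.2% of the summed E-type cyclin FPKM in sh-NC cells and 74.98% and 73.6% in sh-CEBPG#3 cells. The share was thus 9.31 percentage points higher upon knockdown, with no overlap between the groups.

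CDK2, the kinase that E-type cyclins activate, had 22.2 and 23.9 FPKM in control libraries and 15.5 and 14.7 FPKM in knockdown libraries. The gap between the groups was larger than the difference between libraries of a group. With means of 23.0 ± 1.26 and 15.1 ± 0.607 FPKM (SD, n = 2 each), the log2 fold change was -0.58 (95% interval -0.76 to -0.40, adjusted p = 0.000374 in limma). Of its listed transcripts, NM_001798 carried most of the level, with 20.9 and 22.5 FPKM against 14.6 and 13.4 FPKM (log2 fold change -0.59, adjusted p = 0.0372 when each transcript was tested by itself in limma). NM_052827 was at 1.39 FPKM in sh-NC cells and 1.11 FPKM in sh-CEBPG#3 cells and did not pass (adjusted p = 0.586 in limma). CDK2 lies on chromosome 12 from 55966830 to 55972789. It was the only one of the 10 genes that passed in each of the 9 alternative settings with all 4 libraries. There its adjusted p was at most 0.0372 in limma. The estimate ran from -0.63 to -0.52 with each library left out.

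CDKN1B encodes p27, an inhibitor that binds cyclin E-CDK2 and also helps to assemble cyclin D complexes. It had 16.6 and 19.2 FPKM in sh-NC cells and 25.3 and 23.8 FPKM in sh-CEBPG#3 cells. Each knockdown library exceeded each control library, by more than the libraries of a group differed. The means were 17.9 ± 1.81 and 24.6 ± 1.11 FPKM (SD, n = 2 each), with a log2 fold change of 0.44 (95% interval 0.24 to 0.64, adjusted p = 0.00314 in limma), the highest of the 10 genes. CDKN1B lies on chromosome 12 from 12717368 to 12722369 and is listed by 1 transcript, NM_004064. The 250 bases before its start (chr12:12717118-12717367, plus strand, GRCh38.p14) held 2 CCAAT boxes and 1 GC box, where CCNE1 has GC boxes alone.
CDKN1B: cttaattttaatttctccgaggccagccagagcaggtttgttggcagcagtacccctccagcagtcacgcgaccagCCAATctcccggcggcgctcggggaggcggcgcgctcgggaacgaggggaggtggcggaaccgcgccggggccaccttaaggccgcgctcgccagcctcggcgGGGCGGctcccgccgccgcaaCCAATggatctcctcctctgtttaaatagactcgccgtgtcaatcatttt

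The mRNA of the inhibitor and of its target moved in opposite directions, so their ratio within a library was also computed, a choice made after the values were seen. CDKN1B per CDK2 was 0.749 and 0.800 in control libraries and 1.63 and 1.62 in knockdown libraries. The ratio was 2.10-fold higher upon knockdown and is not moved by a single scaling factor for a library. The summed E-type cyclins per CDK2 were at 0.540 and 0.542 in sh-NC cells and at 0.610 and 0.569 in sh-CEBPG#3 cells, a difference of 1.09-fold. The summed D-type cyclins per CDK4 plus CDK6 had a mean of 1.09 in sh-NC cells, and were at 0.929 and 0.938 in sh-CEBPG#3 cells, or 0.855-fold. In an exact two-sided permutation test each of the 8 shares and ratios compared had p = 0.333, the smallest that 2 libraries against 2 allow (adjusted p = 0.333), so none of them can pass a threshold of 0.05.

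**Figure D2:**
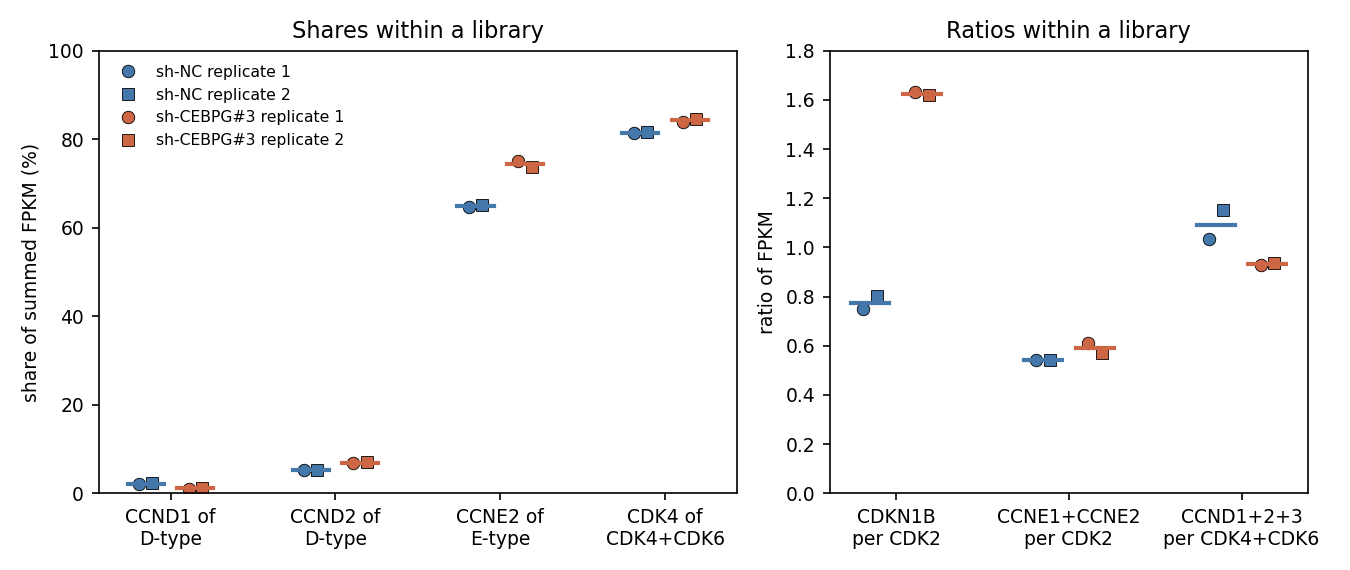
Left, share in percent of the summed FPKM held by CCND1 and CCND2 among D-type cyclins, by CCNE2 among E-type cyclins and by CDK4 in CDK4 plus CDK6, in each library. Right, ratios of FPKM within a library, with bars for the group means: CDKN1B per CDK2 stands at 0.749 and 0.800 in sh-NC and at 1.63 and 1.62 in sh-CEBPG#3.

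CCND3 was the most abundant of the 10 genes and held 92.6% and 92.5% of the summed D-type cyclin FPKM in sh-NC cells, against 92.1% and 91.9% in sh-CEBPG#3 cells. It had 119 and 133 FPKM in control libraries and 122 and 113 FPKM in knockdown libraries, and these ranges overlapped. The log2 fold change was -0.10 (95% interval -0.27 to 0.08, adjusted p = 0.347 in limma). With the libraries scaled to equal totals or quantile normalized, the values were -0.12 (adjusted p = 0.0485) and -0.19 (adjusted p = 0.00614 in limma), so this call depends on the scaling. Over the settings with all 4 libraries the adjusted p ran from 0.00614 to 0.558 in limma. Of its 5 listed transcripts, NM_001760 accounted for nearly all, with a mean of 124 FPKM in sh-NC cells and 115 FPKM in sh-CEBPG#3 cells, and the other 4 each had means of at most 1.70 FPKM. CCND3 lies on chromosome 6 from 41934933 to 42050035.

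CCND2, a D-type cyclin of lower level here, had 6.86 and 7.66 FPKM in sh-NC cells and 9.13 and 8.58 FPKM in sh-CEBPG#3 cells. The groups did not overlap, and the log2 fold change was 0.26 (95% interval 0.05 to 0.46, adjusted p = 0.0479 in limma). This call rests close to the threshold. It was lost with no filter, the replicate block, no trend and by transcript (adjusted p = 0.205 by transcript in limma). The estimate ran from 0.19 to 0.33 with each library left out. CCND1, the D-type cyclin outside the 10 genes, had 2.62 and 3.21 FPKM in sh-NC cells and 1.34 and 1.43 FPKM in sh-CEBPG#3 cells (log2 fold change -0.71, adjusted p = 0.00118 in limma). Within the D-type cyclins CCND2 thus made up 5.32% and 5.31% in sh-NC cells and 6.88% and 6.95% in sh-CEBPG#3 cells, and CCND1 2.03% and 2.22% against 1.01% and 1.16%. CCND2 lies on chromosome 12 from 4273762 to 4305353, where the antisense gene CCND2-AS1 overlaps it.

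CDK4 had 101.6 and 102.2 FPKM in sh-NC cells and 119.9 and 111.4 FPKM in sh-CEBPG#3 cells. Both knockdown libraries were above both controls, with a log2 fold change of 0.18 (95% interval 0.02 to 0.34, adjusted p = 0.0647 in limma). CDK4 (chromosome 12, 57747727 to 57752310) overlaps TSPAN31, which had a similar estimate of 0.16 (adjusted p = 0.153 in limma) and from which its reads may not be separable. With equal totals CDK4 passed (0.15, adjusted p = 0.0292 in limma). Over the settings with all 4 libraries its adjusted p ran from 0.0292 to 0.238 in limma. CDK6, the other partner of D-type cyclins, had 23.1 FPKM in each sh-NC library and 23.1 and 20.2 FPKM in knockdown libraries, so both knockdown libraries lay below the controls, 1 of them only just. Its log2 fold change was -0.09 (95% interval -0.28 to 0.10, adjusted p = 0.405 in limma).

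CDK6 (chromosome 7, 92604921 to 92836573) is listed by a major transcript, NM_001145306, with 20.6 and 19.7 FPKM in sh-NC cells and 21.1 and 19.0 FPKM in sh-CEBPG#3 cells. Its minor transcript NM_001259 had 2.59 and 3.41 FPKM in sh-NC cells and 2.04 and 1.25 FPKM in sh-CEBPG#3 cells (log2 fold change -0.61, adjusted p = 0.187 by transcript in limma). The gene CDK6-AS1, which overlaps it by 91 bases, fell from a mean of 6.71 ± 1.57 to 2.40 ± 0.843 FPKM (log2 fold change -1.19, adjusted p = 0.000494 in limma), while CDK6 itself had the estimate given above. CDK4 held 81.5% of the summed FPKM of both kinases in each sh-NC library and 83.8% and 84.6% in knockdown libraries.

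CDKN2D, the INK4 inhibitor p19, had 10.8 and 12.7 FPKM in sh-NC cells and 9.24 and 9.81 FPKM in sh-CEBPG#3 cells. The knockdown libraries were below the controls, and the log2 fold change was -0.28 (95% interval -0.49 to -0.06, adjusted p = 0.0408 in limma). The call was lost with quantile normalization (adjusted p = 0.0641 in limma), no filter, the replicate block, no trend and by transcript. The estimate for CDKN2D ran from -0.38 to -0.17 with each library left out. Its listed transcripts traded level between replicates. NM_001800 had 5.53 and 10.1 FPKM in sh-NC cells and 3.83 and 7.26 FPKM in sh-CEBPG#3 cells, while NM_079421 had 5.31 and 2.58 FPKM and then 5.41 and 2.54 FPKM. In both groups replicate 2 was thus higher for the former and lower for the latter, and their sum varied less than either. Neither passed by itself (adjusted p = 0.527 and adjusted p = 0.996 in limma). CDKN2D lies on the minus strand of chromosome 19 from 10566460 to 10568979, and the 250 bases before its start (chr19:10568980-10569229, minus strand, GRCh38.p14) held 1 CCAAT box and 2 GC boxes.
CDKN2D: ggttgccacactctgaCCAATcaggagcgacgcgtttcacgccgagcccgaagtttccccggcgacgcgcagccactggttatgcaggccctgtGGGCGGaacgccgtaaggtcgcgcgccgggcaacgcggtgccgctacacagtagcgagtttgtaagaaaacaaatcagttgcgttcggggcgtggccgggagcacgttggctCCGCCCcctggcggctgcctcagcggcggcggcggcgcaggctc

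RB1, the substrate of these kinases, had 21.4 and 23.5 FPKM in sh-NC cells and 26.5 and 24.0 FPKM in sh-CEBPG#3 cells. The ranges did not overlap, though the nearest libraries were close, and the log2 fold change was 0.16 (95% interval -0.03 to 0.35, adjusted p = 0.157 in limma). RB1 lies on chromosome 13 from 48303751 to 48481890, with LPAR6 inside its span. With quantile normalization RB1 passed (0.17, adjusted p = 0.0322 in limma). Over the settings with all 4 libraries its adjusted p ran from 0.0322 to 0.329 in limma. In all, 9 of the 10 genes had groups that did not overlap, where 71.7% of all genes tested had none.

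**Figure D3:**
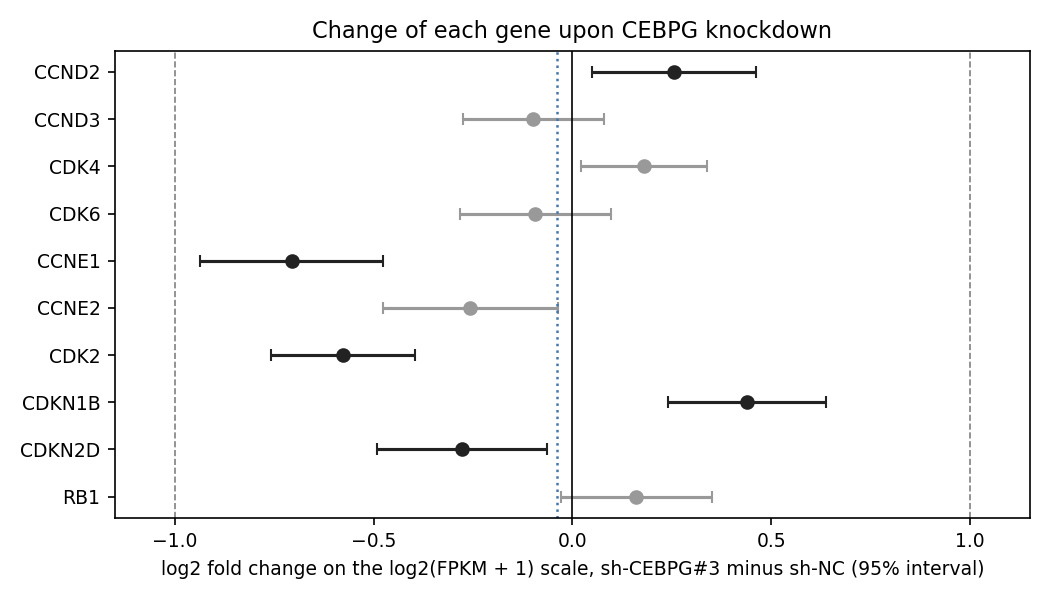
Log2 fold change (sh-CEBPG#3 minus sh-NC, log2(FPKM + 1) scale) of the 10 genes with 95% intervals from limma, black for an adjusted p under 0.05 and grey for the others, with the median of all genes (-0.04) dotted and a log2 change of 1 dashed. The estimates run from -0.71 for CCNE1 to 0.44 for CDKN1B, and all intervals lie within the dashed lines.

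Around these genes, a list of 51 further genes of the G1/S pathway was examined, of which 48 were tested. There, 27 were lower and 4 higher at an adjusted p under 0.05 in limma, and 17 did not pass. These are 56.2% lower and 8.3% higher, against 23.8% and 18.5% of all genes. The list also holds genes that act later in the cycle, such as CDK1, FOXM1 and MYBL2, all lower. Its share of lower genes is thus not that of G1/S genes alone. The median log2 fold change of the list was -0.40. By role, 6 of the 10 E2F and DP factors were lower and 0 higher, and 3 of 3 CDC25 phosphatases were lower. So were 5 of 7 genes of, or grouped with, the MuvB and DREAM complexes, which control cell cycle transcription. The 5 include MYBL2 and FOXM1, which were grouped with these complexes. These counts by role rest on few genes each, where 23.8% of all genes were lower. Of the CDK-activating kinase, MNAT1 was lower, from 8.55 and 8.92 to 4.14 and 3.05 FPKM (log2 fold change -1.09), and CDK7 and CCNH did not pass.

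The lowest estimates of that list were those of E2F8, a repressor of the E2F family (6.84 to 2.58 FPKM, log2 fold change -1.13), MYBL2, which activates late cell cycle genes (56.0 to 25.4 FPKM, -1.11), MNAT1 and FOXM1, a transcription factor of G2 genes (13.1 to 6.05 FPKM). Their adjusted p was at most 7.38e-05 in limma. Higher were CDKN1A (log2 fold change 0.94, adjusted p = 5.91e-06), CCNA1 (0.88, adjusted p = 0.000229) and CDKN1C (0.55, adjusted p = 0.00858), besides SKP1 (0.27, adjusted p = 0.0130 in limma). CCNA1 is the A-type cyclin of germ cells and myeloid leukemia, and stood at 2.16 and 2.45 FPKM in sh-NC cells and 5.55 and 4.61 FPKM in sh-CEBPG#3 cells.

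Like CDKN1B, the other CIP/KIP inhibitors were higher. CDKN1A, encoding p21, had 169 and 179 FPKM in sh-NC cells and 342 and 326 FPKM in sh-CEBPG#3 cells, and CDKN1C, encoding p57, 0.376 and 0.493 FPKM and then 1.10 FPKM in each. CDKN1A was the most abundant of the family. Among INK4 inhibitors CDKN2C, encoding p18, was lower like CDKN2D, at 40.3 and 46.5 FPKM in sh-NC cells and 30.5 and 27.0 FPKM in sh-CEBPG#3 cells (log2 fold change -0.58, adjusted p = 0.000838 in limma). Of the pocket proteins, both relatives of RB1 were lower. RBL1 went from 6.08 to 2.78 FPKM (log2 fold change -0.91) and RBL2 from 23.7 to 16.1 FPKM (log2 fold change -0.53), with adjusted p = 0.000203 and adjusted p = 0.000657 in limma. RBL1, SKP1 and CCND1 were named after their values were seen, to complete their families or counts.

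Genes that E2F factors are known to drive at the G1/S boundary were lower in nearly all cases. Of 35 such genes, 32 were lower at an adjusted p under 0.05 in limma (91.4%, against 23.8% of all genes), 0 were higher and 3 did not pass (RRM2, GMNN and EZH2), with a median log2 fold change of -0.65. At an unadjusted p under 0.05 in limma there were 33 lower and 1 higher, against 28.5% and 22.0% of all genes. Among the lowest estimates were those of UHRF1 (-1.39), MCM6 (42.8 and 46.5 against 20.7 and 18.5 FPKM) and MYBL2 (-1.11). UHRF1, which maintains DNA methylation, had a mean of 49.6 FPKM in sh-NC cells and 18.3 FPKM in sh-CEBPG#3 cells.

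Of 22 genes of G2 and mitosis, 21 were lower in limma (95.5%, against 23.8% of all genes) and 0 higher (18.5% of all genes). At an unadjusted p under 0.05 the counts were 22 and 0, against 28.5% and 22.0% of all genes. The median log2 fold change was -0.68. MKI67, the usual marker of proliferating cells, went from a mean of 19.2 to 9.35 FPKM (log2 fold change -0.96), and HMMR (-1.01), BIRC5 (24.6 and 24.7 against 11.8 and 11.9 FPKM) and CDK1 (-0.88) were lower as well. Their adjusted p was at most 1.61e-05 in limma. Of 23 genes known to be raised in cells that leave the cycle, 21 were tested. Of the 21, 9 were higher (42.9%, against 18.5% of all genes), 3 were lower (14.3%, against 23.8%) and 9 did not pass. BTG2, an antiproliferative gene, rose from 7.95 and 8.14 FPKM to 23.6 and 20.6 FPKM (log2 fold change 1.35), and SESN1, a stress-induced gene, from 16.4 and 16.2 FPKM to 27.0 and 24.3 FPKM (log2 fold change 0.62). The adjusted p of each was no higher than 0.000242 in limma. Without sh-CEBPG#3 replicate 1 the count of higher genes was 5.

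**Figure D4:**
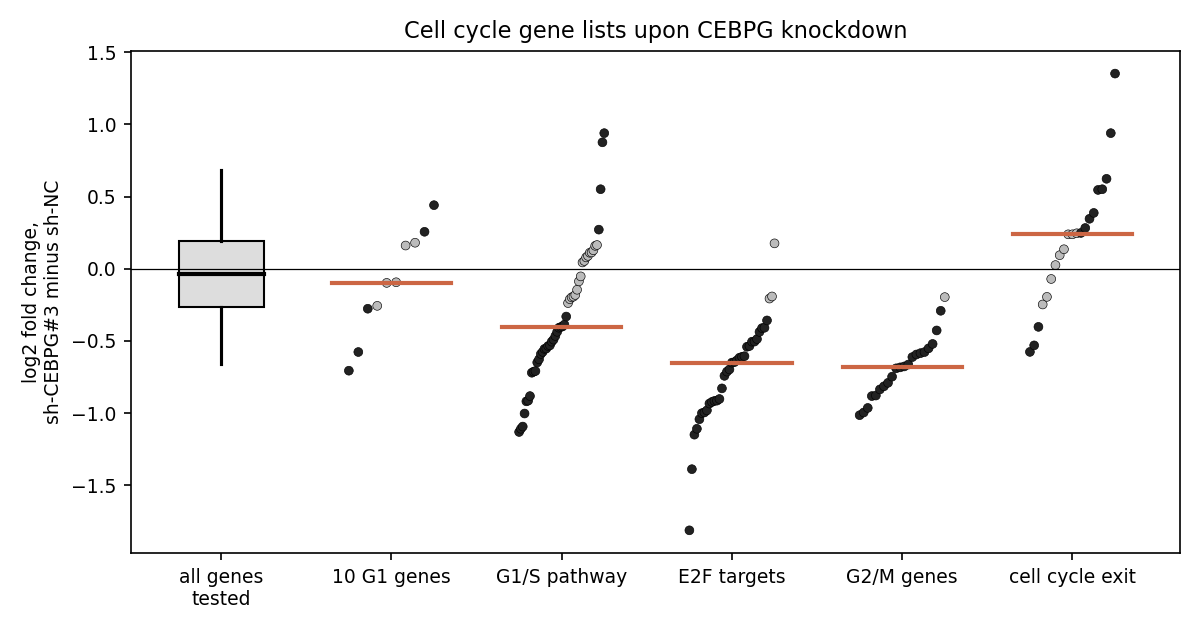
Log2 fold change (sh-CEBPG#3 minus sh-NC) of all genes tested (box from the 25th to the 75th percentile, whiskers from the 5th to the 95th) and of each tested gene of 5 lists, black for an adjusted p under 0.05 in limma, with red bars at the medians. The medians are -0.10 for the 10 G1 genes, -0.40 for the G1/S pathway, -0.65 for E2F targets, -0.68 for G2/M genes and 0.24 for cell cycle exit. Some genes are in more than 1 list.

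Most tested markers of monocytes and macrophages moved with the groups. Of 8 markers, 7 had values and 6 were tested. In limma 5 of the 6 markers were higher in sh-CEBPG#3 cells (83.3%, against 18.5% of all genes) and 0 lower. ITGAM did not pass, with means of 7.80 and 8.36 FPKM (log2 fold change 0.09, adjusted p = 0.451 in limma). The summed level of the 7 markers was 642 and 699 FPKM in sh-NC cells and 3291 and 3135 FPKM in sh-CEBPG#3 cells. Most of it came from LYZ, the lysozyme of monocytes, with 567 and 610 FPKM against 3126 and 2982 FPKM. CD14, the defining surface receptor, was under the filter, listed at 0.187 and 0 FPKM in sh-NC cells and at 1.09 and 0.697 FPKM in sh-CEBPG#3 cells. The part of this shift in the values of CCNE1, CDK2, CDKN1B and the cell cycle lists was not tested.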

How the data were processed

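RNA-seq was carried out on 4 MV4-11 libraries, grouped by their titles as sh-NC (2) and sh-CEBPG#3 (2). Reads were filtered by the authors and mapped with HISAT (the submitters' processing notes name HISAT2 2.0.5 and hg38), and the deposited values are FPKM, 1 per RefSeq transcript and library. The annotation release and the program that computed FPKM are not given in the sources used here, and neither is whether counting used strand. FPKM of reads shared between overlapping genes, or between transcripts of a gene, depend on how that program assigned them.

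Of 28780 transcripts, 28581 had values, and summing them by symbol gave 16490 genes. Genes whose mean reached 0.5 FPKM (12142) were tested as log2(FPKM + 1) with limma 3.58.1 (lmFit, eBayes with a trend) in R 4.3.3, with Benjamini-Hochberg adjustment over all of them and no block. The study identified DEGs with DESeq2, which takes counts and was not run here. Depth is unknown, so no counting interval is given, and the precision rests on 2 libraries a group. The fit was tested on simulated data with 100 genes at each size of change. It called 15% of genes with a log2 change of 0.5 in size, 74% of those with 1 and 0.0251% of unchanged genes. Far fewer genes changed there than were called in the data (5128), so these shares do not carry over directly. A gene that did not pass is thus not shown to be unchanged. Whether replicate numbers from the titles pair the libraries is not known. The deviations of same-numbered libraries had a correlation of 0.061 over the genes tested, which cannot exclude a shared batch. The CDKN2D transcripts differed by replicate in the same way in both groups, and a replicate block was fitted as an alternative.

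The 10 genes and all gene lists were chosen with earlier results of these data known. Some genes are in more than 1 list, so the counts of the lists are not independent. The G1/S and E2F lists share 6 genes, all lower. CDK1 is in the G1/S and G2/M lists, and CDKN1A, CDKN1C, CDKN2C and RBL2 are in the G1/S and exit lists. From each list, genes past an adjusted p of 0.05 whose log2 fold change exceeded 0.5 in size were named, at most 4 in each direction. A gene that this rule names is not reported here. CDKN2A, CDKN2B and CDK3 of the G1/S list had no value in the data used here, so they were not analysed. All 17 listed transcripts of the 10 genes matched RefSeq (GRCh38.p14), which gave coordinates and promoters (7 of 10 genes). Alternatives were other pseudocounts, filters and scalings, a replicate block, no trend, the most abundant transcript, and each library left out. The ratios between genes were added after the data were seen.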

Additional observations from a re-analysis of the deposited data

How the results depend on the processing

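The log2 fold changes of the 10 genes kept their direction in all 130 values from 13 alternative settings, of which 106 also kept their side of the threshold, 17 no longer passed and 7 newly passed. CDK2 passed in each of the 9 settings with all 4 libraries. CCNE1 (-0.93 to -0.67) and CDKN1B (0.34 to 0.54) failed only in the fit by transcript (adjusted p = 0.0535 and adjusted p = 0.0743 in limma). Each has 1 listed transcript, so its FPKM and estimate were those of the main fit. The fit by transcript tested 18624 transcripts in place of 12142 genes. CCND2 and CDKN2D failed with no filter, the replicate block, no trend and by transcript, and CDKN2D also with quantile normalization.

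The count of lower genes among the 10 was 3, and 5 with equal totals, 1 by transcript and 2 to 4 with each library left out. That of higher genes was 2, and 3 with quantile normalization and with equal totals, 1 with no filter, with no trend and with the replicate block, 0 by transcript and 1 to 2 with each library left out. Counts over all genes moved too, from 2884 lower and 2244 higher. With equal totals 3501 were lower and 2346 higher, and with quantile normalization 3054 and 2697. With no filter there were 2232 and 1861, with no trend 2721 and 2102, and with the replicate block 2673 and 2088. By transcript 645 genes were lower and 640 higher. Also by transcript, the lower genes of the G1/S pathway numbered 9 in place of 27, those driven by E2F 19 in place of 32, and the exit genes that were higher 3 in place of 9. A single E2F gene was higher with quantile normalization or equal totals. Genes past the study's threshold numbered 414, then 827 and 882 with pseudocounts of 0.1 and 0.01, and 433 to 461 with each library left out, but 0 of the 10 passed it in any setting. The share of CCND2 differed by 1.59 percentage points, and by 1.67 with the most abundant transcript, and that of CDK4 by 2.74 and 1.75. What caused these shifts was not tested.

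A fit without 1 library assumes that the lone library of its group varies like the others. Its p-values are not comparable with those of all 4 libraries, so its calls and counts are not read as stronger or weaker support. The CDKN1B per CDK2 ratio was 2.03-fold to 2.17-fold with each library left out. The FPKM carry no depth, so low genes could not be weighted by counts.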
